A study of Mus musculus with 3 samples.

Results

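The 10 genes Rbfox1, Rbfox2, Rbfox3, Nova1, Nova2, Ptbp1, Ptbp2, Elavl3, Elavl4 and Srrm4 encode RNA-binding proteins that set splicing and RNA fate in neurons. They were taken by name from 54232 genes counted in each of 3 RNA-seq libraries of cultured cortical neurons from wildtype CD1 mice. In the IKVAV PA library the neurons had grown on peptide amphiphiles, molecules that assemble into fibres, bearing IKVAV, a short laminin sequence. For the IKVAV PA + PEDOT-S library a further component was added to such a scaffold, which its title calls PS2 and its library name PEDOT-S_OH, here taken to be the sulfonated conducting polymer PEDOT-S. The PDL library is labelled as the control. The sources used here do not give the age of the cultures, how many animals were pooled, or what PDL stands for. Each group has 1 library, so no test between groups was possible, every difference describes these libraries only, and intervals cover counting error alone.

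Alternative splicing differs between neurons and other cells largely because neurons make their own set of RNA-binding proteins. Ptbp1 is a splicing repressor of progenitors, glia and most other cells. It keeps its paralog Ptbp2 low by making the Ptbp2 RNA skip an exon, which sends that RNA to decay, and the fall of Ptbp1 during neuronal differentiation lets Ptbp2 protein appear. The Rbfox, Nova and Srrm4 proteins then promote or repress neuronal exons, and the neuronal Elavl proteins bind U-rich RNA to steer splicing, stability and translation.

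The exon behind this control is shown because it exists in both paralogs and because gene-level counts cannot tell the forms with and without it apart. In GENCODE M21 (GRCm38) it is 34 bases long in each gene, which is not a multiple of 3. It lies at chr10:79862014-79862047 on the plus strand as exon 9 of the Ptbp1 transcript shown, and at chr3:119724612-119724645 on the minus strand as exon 10 of the Ptbp2 transcript shown. Capitals mark the exon, and the 15 lower-case bases on each side come from the neighbouring exons of the spliced transcript.
Ptbp1: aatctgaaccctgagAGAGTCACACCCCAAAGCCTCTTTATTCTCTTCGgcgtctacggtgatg
Ptbp2: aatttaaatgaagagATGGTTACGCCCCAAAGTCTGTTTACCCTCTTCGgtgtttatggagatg
The exons are identical at 26 of 34 bases (76.5%). In each gene 2 annotated transcripts join the neighbouring exons without this exon, and all of these are annotated as targets of nonsense-mediated decay. On GRCm38 the genes lie on 10 chromosomes. Rbfox1 is at chr16:5885355-7411526, Rbfox2 at chr15:77078990-77307004, Rbfox3 at chr11:118489762-118911597, Nova1 at chr12:46694517-46818929 and Nova2 at chr7:18925888-18965319. Ptbp1 is at chr10:79854427-79864771, Ptbp2 at chr3:119718742-119784466, Elavl3 at chr9:22015005-22052023, Elavl4 at chr4:110203722-110351909 and Srrm4 at chr5:116439275-116591817. No stretch of 50 bases was shared between the transcripts of any 2 of the 10 genes, so reads of that length would not mix the paralogs. Ptbp1 shared 246 of its 5181 stretches of 50 bases with the processed pseudogenes Gm18815 and Gm4900, which held at most 15 counts in any library. How reads matching both places were counted was not examined, so these low counts do not show that Ptbp1 was unaffected.

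Total counts were 124425958 in the IKVAV PA library, 79057998 in the IKVAV PA + PEDOT-S library and 78993105 in the PDL control library. All 10 regulators passed the expression filter, as did 13884 genes in all. The smallest count of any regulator was 2005 reads. Neuronal markers were abundant in each library, as the cell label says. The 10 neuronal marker genes Map2, Tubb3, Snap25, Syn1, Syp, Stmn2, Nefl, Nefm, Gap43 and Dcx summed to 10864, 10704 and 10582 normalised CPM (counts per 1000000 after trimmed-mean scaling) in the IKVAV PA, IKVAV PA + PEDOT-S and PDL control libraries. Markers of other cells were present as well and are given beside Ptbp1.

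No regulator differed between any 2 libraries by more than 1.5-fold beyond counting error. With this rule, in which the nearer bound of the 95% counting interval had to lie past 1.5-fold, 0 of 10 regulators were called in IKVAV PA against PDL control, where 3.96% of all genes were. The count was also 0 of 10 in IKVAV PA + PEDOT-S against PDL control (4.21% of all genes) and in IKVAV PA + PEDOT-S against IKVAV PA (2.35% of all genes). At these shares fewer than 1 of 10 genes would be called in any comparison, so the counts of 0 do not set the regulators apart. The largest difference of any regulator was a log2 ratio of -0.31, for Ptbp1 in IKVAV PA against PDL control.

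Counting error was small enough to order the libraries for most regulators. In IKVAV PA against PDL control, 7 of 10 intervals lay above no difference and 2 below, against 28% and 28.9% of all genes. In IKVAV PA + PEDOT-S against PDL control, 6 lay above and 3 below, against 28.6% and 28.5%. Between the scaffolds, 3 lay above and 7 below, against 31.4% and 28.5%. Such intervals narrow with depth, and among the 6613 genes with 2000 counts or more in every library they left out no difference for 65.3%, 66.2% and 72.4% in the 3 comparisons. All 10 regulators are such genes. In IKVAV PA against PDL control 34.8% of these deep genes lay above and 30.5% below. The shares were 42.8% and 23.4% in IKVAV PA + PEDOT-S against PDL control, and 45.4% and 27% between the scaffolds. The median log2 ratio of the regulators was 0.07 in IKVAV PA against PDL control, 0.09 in IKVAV PA + PEDOT-S against PDL control and -0.04 between the scaffolds, beside medians of all genes within 0.01 of no difference. The comparisons with PDL share that library, so they are not independent of each other.

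**Figure D1:**
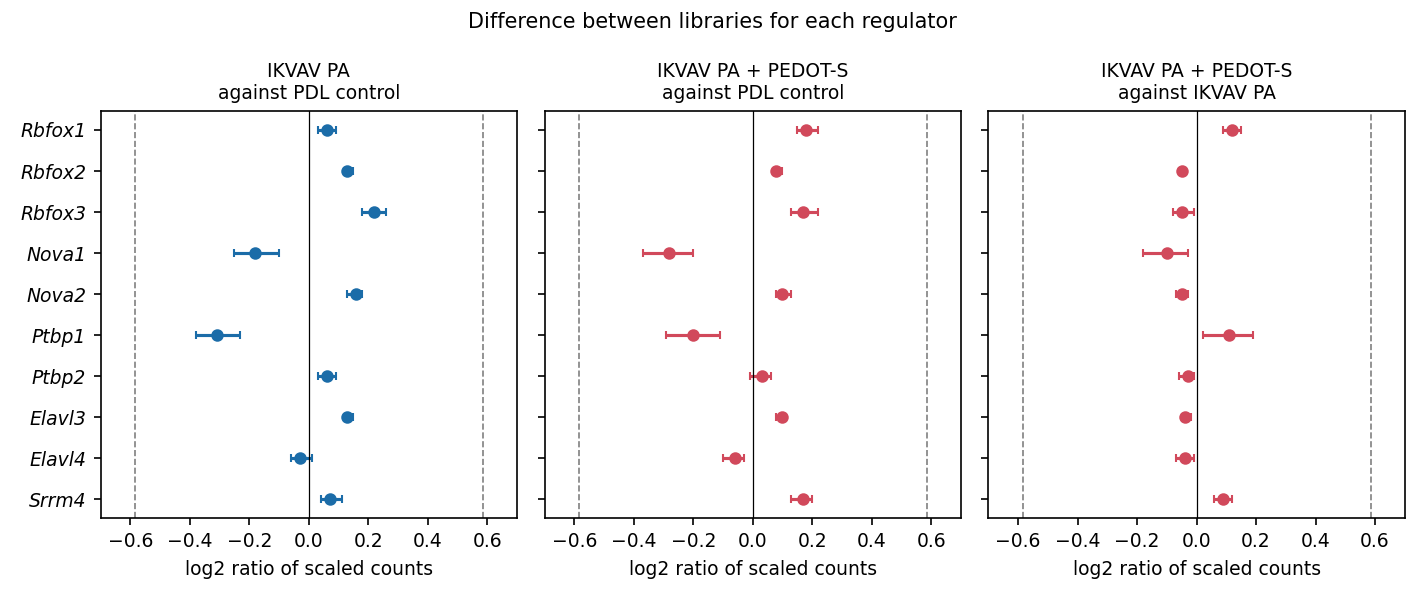
Log2 ratio of scaled counts for each regulator (points) with its 95% counting interval (bars) in the 3 comparisons; dashed lines mark 1.5-fold and each group is 1 library. All 30 points lie inside the dashed lines, with Ptbp1 (-0.31 and -0.20) and Nova1 (-0.18 and -0.28) left of 0 against PDL control.

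Ptbp1, the repressor of progenitors and glia, was 1.24-fold lower with IKVAV PA than on PDL. It had 2965 counts (23.8 normalised CPM) in IKVAV PA, 2005 counts (25.6 CPM) in IKVAV PA + PEDOT-S and 2343 counts (29.4 CPM) in PDL control, so both scaffold libraries lay below the control. The log2 ratio was -0.31 (interval -0.38 to -0.23) for IKVAV PA against PDL control and -0.20 (-0.29 to -0.11) for IKVAV PA + PEDOT-S against PDL control. Of all genes tested, 10.2% and 19.5% had a ratio at or below these values. Between the scaffolds Ptbp1 stood at 25.6 CPM in IKVAV PA + PEDOT-S against 23.8 CPM in IKVAV PA (0.11, interval 0.02 to 0.19).

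Ptbp2, the neuronal paralog, hardly differed among the libraries. It had 26094, 15999 and 15988 counts, or 209, 204 and 201 CPM, in IKVAV PA, IKVAV PA + PEDOT-S and PDL control. The log2 ratio was 0.06 (interval 0.03 to 0.09) in IKVAV PA against PDL control and 0.03 (-0.01 to 0.06) in IKVAV PA + PEDOT-S against PDL control. The second of these turned slightly negative when total counts or neuronal markers set the scale. Ptbp3, the third paralog, had 17.5, 17.9 and 19.2 CPM in IKVAV PA, IKVAV PA + PEDOT-S and PDL control.

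The balance of the pair, which needs no scaling between libraries, leaned furthest to Ptbp2 in the IKVAV PA library. Ptbp1 made up 10.2% of the counts of both genes in IKVAV PA (exact Clopper-Pearson interval 9.86 to 10.6), 11.1% in IKVAV PA + PEDOT-S (10.7 to 11.6) and 12.8% in PDL control (12.3 to 13.3), and these intervals do not overlap. They cover counting error alone. At such depth separation is usual, as single-gene intervals left out no difference for 65.3%, 66.2% and 72.4% of deep genes in the 3 comparisons. It does not set this pair apart. The count of Ptbp1 per count of Ptbp2 was 0.775-fold that of PDL control in IKVAV PA (exact conditional interval 0.732 to 0.822) and 0.855-fold in IKVAV PA + PEDOT-S (0.802 to 0.912). Between the scaffolds it was 1.10-fold higher in IKVAV PA + PEDOT-S (1.04 to 1.17). Ptbp2 predominated in all 3 libraries. Per kilobase of merged exon its level was 4.55-fold that of Ptbp1 in IKVAV PA, 4.12-fold in IKVAV PA + PEDOT-S and 3.53-fold in PDL control. The fold depends on the length used. Stated as Ptbp1 per Ptbp2, these values were 0.22, 0.243 and 0.284 by merged exon. By the longest annotated transcript they were 0.145, 0.16 and 0.187, so Ptbp2 stood further above Ptbp1.

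**Figure D2:**
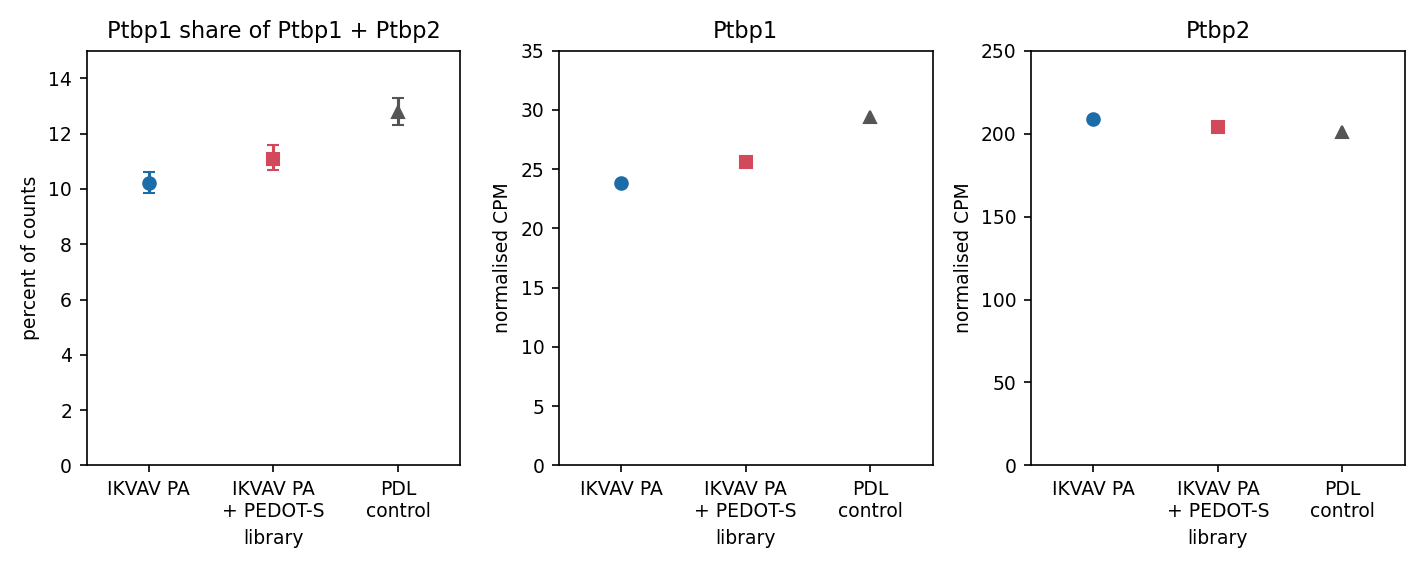
Left, share of Ptbp1 in the counts of Ptbp1 and Ptbp2 with its 95% Clopper-Pearson interval; middle and right, normalised CPM of Ptbp1 and Ptbp2; each point is 1 library. The share is 10.2% in IKVAV PA, 11.1% in IKVAV PA + PEDOT-S and 12.8% in PDL control, while Ptbp2 stays between 201 and 209 CPM.

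Of the exonic bases of Ptbp1, 20.7% overlap other genes on the opposite strand, so its level is uncertain, as no source used here gives the strand setting of the counting. The main overlapping gene with counts, Plppr3, was at 343, 336 and 304 CPM in IKVAV PA, IKVAV PA + PEDOT-S and PDL control, and its log2 ratios of 0.17 and 0.14 against PDL control have the opposite sign to those of Ptbp1. Another, E130317F20Rik, was at 4.97, 7.26 and 5.79 CPM in the same order, with log2 ratios of -0.22 and 0.33. The part of these overlaps in the Ptbp1 values was not tested. With the overlapping bases left out of the length of Ptbp1, a choice made after seeing the data, the per-length fold of Ptbp2 over Ptbp1 was 3.60, 3.27 and 2.79 in the same order of libraries.

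The summed markers of dividing cells, neural progenitors, astrocytes and mesenchymal cells were lower in the same libraries as Ptbp1, and by more. Summed over 8 cell cycle genes, the level was 69.1 CPM in IKVAV PA, 69.2 in IKVAV PA + PEDOT-S and 151 in PDL control, with 7 of 8 genes called lower in IKVAV PA and 6 of 8 in IKVAV PA + PEDOT-S. Neural progenitor markers summed to 184, 205 and 335 CPM in the same order, with Nes and Vim called lower in both scaffold libraries out of 7 genes tested. Astrocyte markers summed to 238, 252 and 392 CPM. Among the 7 of them at 1 CPM or more in at least 2 libraries, 6 were called lower in IKVAV PA and 4 in IKVAV PA + PEDOT-S. This stricter filter was chosen after seeing the data and leaves out genes that passed through 1 library alone. Gfap (0.497, 1.39 and 0.402 CPM) and Aqp4 (0.538, 0.996 and 1.29 CPM) are such genes and are given by their levels only.

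Fibroblast and mural markers summed to 53.1, 23.8 and 136 CPM in IKVAV PA, IKVAV PA + PEDOT-S and PDL control, with 4 and 6 of 6 tested called lower. Between the scaffolds this sum was lower in IKVAV PA + PEDOT-S, while the neural progenitor and astrocyte sums were higher there and the cell cycle sums nearly equal. Oligodendrocyte lineage markers summed to 79.1, 101 and 109 CPM, and among 9 of them under that filter 4 were called lower in each scaffold library, 1 higher in IKVAV PA and 3 higher in IKVAV PA + PEDOT-S. Endothelial markers summed to 4.03, 3.35 and 6.40 CPM, with Kdr called lower in both scaffold libraries among the 2 under that filter. Microglial markers summed to 2.20, 2.25 and 1.59 CPM, and the microglial gene Itgam was at 0 in the IKVAV PA and PDL control libraries. In bulk RNA, fewer cells of a type and less RNA per cell cannot be told apart, and the part of these cells in the Ptbp1 values was not tested.

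**Figure D3:**
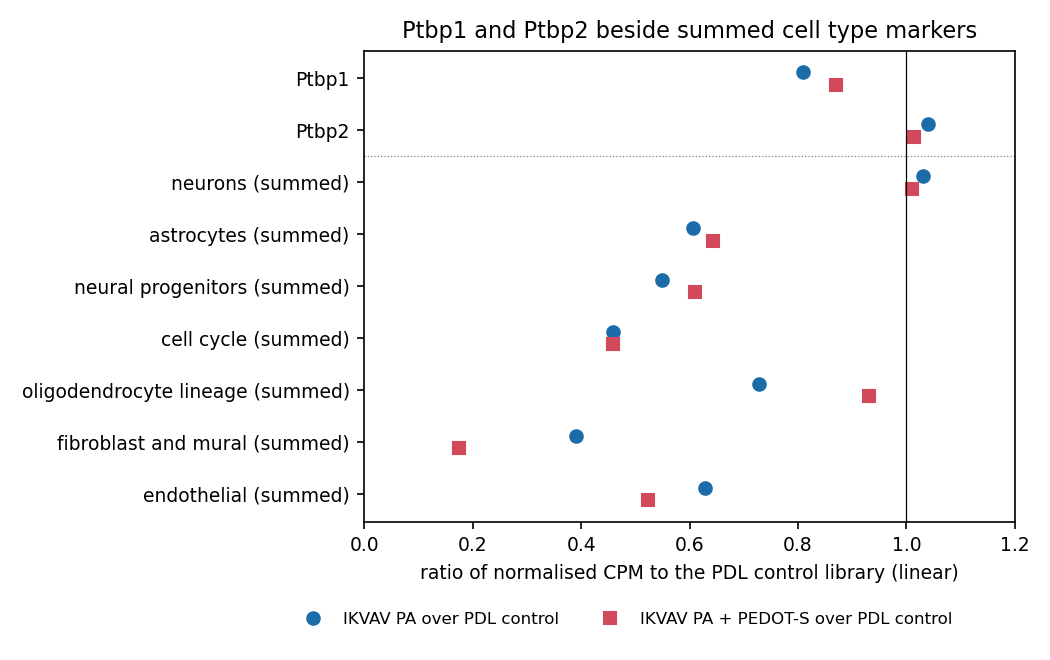
Ratio of normalised CPM to the PDL control library (x axis, linear) for Ptbp1, Ptbp2 and the summed markers of cell types with at least 3 genes tested; circles are IKVAV PA and squares IKVAV PA + PEDOT-S, 1 library each. Neuronal markers lie at 1.03 and 1.01, Ptbp1 at 0.809 and 0.871, and cell cycle markers at 0.458 in both.

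The Rbfox proteins bind the element UGCAUG in introns, and whether they promote or repress an exon depends on their position beside it. Rbfox2, which is made in many cell types, was the most abundant of the 3 and had 882, 851 and 804 CPM in IKVAV PA, IKVAV PA + PEDOT-S and PDL control. Its log2 ratio was 0.13 (interval 0.12 to 0.15) in IKVAV PA and 0.08 (0.07 to 0.10) in IKVAV PA + PEDOT-S, each against PDL control. Rbfox3, known as the neuronal nuclear antigen NeuN, had 115, 111 and 98.6 CPM. Its log2 ratios against PDL control were 0.22 (0.18 to 0.26) and 0.17 (0.13 to 0.22), the first being the highest of any regulator in that comparison.

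Rbfox1, whose transcription unit spans 1526 kilobases on chromosome 16, was highest in the library with PEDOT-S. It had 168 CPM in IKVAV PA, 182 in IKVAV PA + PEDOT-S and 161 in PDL control. The log2 ratio was 0.06 (0.03 to 0.09) for IKVAV PA and 0.18 (0.15 to 0.22) for IKVAV PA + PEDOT-S against PDL control. Between the scaffolds it was 0.12 (0.09 to 0.15), the largest positive value of the 10 genes in that comparison. Of the Rbfox counts, Rbfox1 held 14.4% in IKVAV PA (interval 14.2 to 14.6), 15.9% in IKVAV PA + PEDOT-S (15.7 to 16.2) and 15.1% in PDL control (14.9 to 15.4), and these intervals do not overlap. They cover counting error alone and are narrow at this depth, so their separation does not set Rbfox1 apart. Rbfox2 held 75.7%, 74.4% and 75.6% in the same order, with the interval of IKVAV PA + PEDOT-S (74.1 to 74.7) below the others. Rbfox3 held 9.85%, 9.71% and 9.27% of them.

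The Nova proteins are neuronal splicing factors first described as antigens of a paraneoplastic disorder, and their genes went opposite ways against PDL control. Nova1 had 27.8 CPM in IKVAV PA, 25.9 in IKVAV PA + PEDOT-S and 31.5 in PDL control. Its log2 ratio was -0.18 (interval -0.25 to -0.10) in IKVAV PA and -0.28 (-0.37 to -0.20) in IKVAV PA + PEDOT-S against PDL control, where the second value is the lowest of any regulator in its comparison. Nova2, the main cortical form, had 387, 373 and 348 CPM and log2 ratios of 0.16 (0.13 to 0.18) and 0.10 (0.08 to 0.13). In IKVAV PA + PEDOT-S against IKVAV PA both were lower, at -0.10 (-0.18 to -0.03) for Nova1 and -0.05 (-0.07 to -0.03) for Nova2. Nova1 made up 6.71%, 6.49% and 8.31% of the Nova counts in IKVAV PA, IKVAV PA + PEDOT-S and PDL control, and the interval of the control (8 to 8.63) lies above both others. These intervals, too, cover counting error alone. Of the exonic bases of Nova2, 31.7% overlap the opposite-strand gene Gm26821, which had 0 counts in all 3 libraries. As the strand setting of the counting is not given, these 0 counts do not show that Nova2 was unaffected by the overlap. Its level, also per kilobase, and its share of the Nova counts are therefore uncertain.

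Srrm4, the activator of neuronal microexons, had 165 CPM in IKVAV PA, 176 in IKVAV PA + PEDOT-S and 157 in PDL control. Like Rbfox1 it was highest with PEDOT-S, at log2 ratios of 0.07 (0.04 to 0.11) and 0.17 (0.13 to 0.20) against PDL control and 0.09 (0.06 to 0.12) between the scaffolds. Its relative Srrm3, which acts on the same class of exons, was highest in IKVAV PA instead, at 56.6 CPM, beside 49.0 in IKVAV PA + PEDOT-S and 45.4 in PDL control. Its log2 ratio in IKVAV PA against PDL control was 0.32 (interval 0.26 to 0.38). None of the differences of Srrm4 or Srrm3 passed the 1.5-fold bound.

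Elavl3 and Elavl4 encode the neuronal Hu proteins HuC and HuD. Elavl3 had 795, 775 and 725 CPM in IKVAV PA, IKVAV PA + PEDOT-S and PDL control, with log2 ratios of 0.13 (0.12 to 0.15) and 0.10 (0.08 to 0.11) against PDL control. Elavl4 had 158, 154 and 161 CPM, and its log2 ratios of -0.03 (-0.06 to 0.01) and -0.06 (-0.10 to -0.03) lay on the other side of 0. Elavl4 thus made up 16.6% of the counts of the pair in each scaffold library and 18.2% in PDL control. Elavl2, the remaining neuronal member (HuB), had 187, 207 and 184 CPM, and Elavl1, the widely expressed HuR, had 122, 129 and 118 CPM.

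Per kilobase of merged exon, Elavl3 and Rbfox2 were the most abundant regulators and Ptbp1 and Nova1 the least in all 3 libraries. Elavl3 stood at 115, 113 and 105 CPM per kilobase and Rbfox2 at 108, 105 and 98.8 in IKVAV PA, IKVAV PA + PEDOT-S and PDL control. Then followed Nova2 (46.2, 44.6 and 41.5), Rbfox1 (38.1, 41.4 and 36.5), Elavl4 (29.3, 28.6 and 29.9) and Ptbp2 (22.8, 22.3 and 21.9). Srrm4 (19.1, 20.3 and 18.1) and Rbfox3 (19.7, 19.1 and 16.9) changed places between libraries and were not ordered. Ptbp1 (5.02, 5.40 and 6.21) and Nova1 (3.18, 2.96 and 3.60) lay well below. Lengths limit this order, because with the longest annotated transcript in place of merged exons Ptbp2 moved up to the fourth place, at 51.7, 50.5 and 49.6 CPM per kilobase. Nova2 and Elavl4 then lay below Ptbp2, Rbfox1 lay above Nova2, and Rbfox3 lay above Srrm4 in all 3 libraries. Elavl3, Rbfox2, Ptbp1 and Nova1 kept their places.

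**Figure D4:**
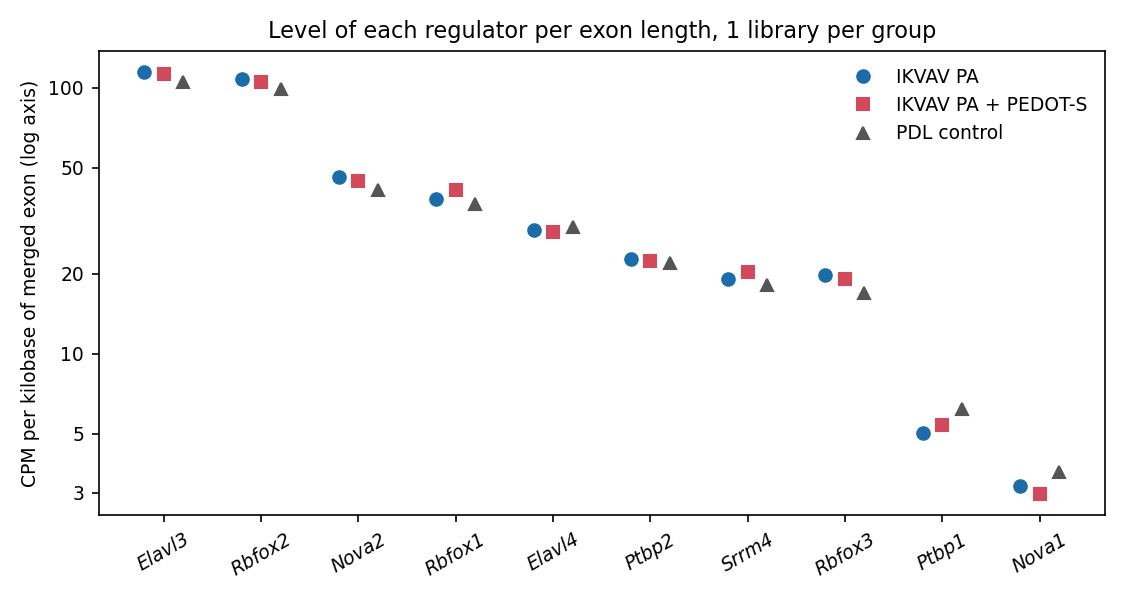
Level of each regulator in CPM per kilobase of merged exon (y axis, log scale) in the 3 libraries; each point is 1 library, with no error bar because there are no replicates. Libraries lie close together for each gene, while genes range from 105 (Elavl3) to 3.60 (Nova1) in PDL control.

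Small gene models are annotated inside some of these loci. Of 4 such models at 1 CPM or more in every library, 4 had positive log2 ratios in IKVAV PA against PDL control, as did 50% of all genes and 7 of 10 regulators. The same 4 had negative log2 ratios in IKVAV PA + PEDOT-S against IKVAV PA, where 51.7% of all genes were positive and 7 of 10 regulators negative. These 2 comparisons share the IKVAV PA library, and 2 of the 4 models lie inside Ptbp2. In IKVAV PA + PEDOT-S against PDL control all 4 were negative as well, whereas 49.4% of all genes and 7 of 10 regulators were positive. No difference between these models and other genes was tested. Gm42853, inside Srrm4 on the same strand, had 3.96 CPM in IKVAV PA, 1.81 in IKVAV PA + PEDOT-S and 1.97 in PDL control. It alone of the 4 was called higher in IKVAV PA against PDL control (log2 ratio 1.01), where 3.96% of all genes were called. Gm42664, inside Ptbp2 on the same strand, had 10.2, 5.98 and 6.53 CPM in the same order and was called lower in IKVAV PA + PEDOT-S against IKVAV PA (-0.77). Gm42853 (-1.13) and 1700109K24Rik (-0.98), inside Rbfox2 on the opposite strand, were called lower there too, whereas Gm43300 (-0.72), inside Ptbp2, was not. Of all genes, 2.35% were called in that comparison. Srrm4os, an antisense RNA that overlaps 0.784% of the exonic bases of Srrm4, had 8.51, 3.82 and 5.18 CPM. Counts inside Ptbp2 came to 7.34% of the Ptbp2 count in IKVAV PA, 4.45% in IKVAV PA + PEDOT-S and 5% in PDL control. These models were looked for after the files were seen.

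The wider circuit around Ptbp1 gave 2 calls, of different genes in different comparisons. In these comparisons, IKVAV PA + PEDOT-S against PDL control and between the scaffolds, 4.21% and 2.35% of all genes were called. REST is a repressor that keeps neuronal genes silent in other cells, Ctdsp phosphatases assist it, and miR-124 from its host genes represses Ptbp1 and Ctdsp RNAs. Of 7 genes in this list none was called in IKVAV PA against PDL control. Ctdsp1 was called lower in IKVAV PA + PEDOT-S against PDL control, at 175 counts (2.24 CPM) against 388 counts (4.87 CPM; log2 ratio -1.12, interval -1.39 to -0.86), and it stood at 3.12 CPM in IKVAV PA. The host gene Mir124a-1hg had 46.8 CPM in IKVAV PA + PEDOT-S against 75.5 CPM in IKVAV PA and was called lower between the scaffolds (log2 ratio -0.69, interval -0.75 to -0.64). It stood at 55.7 CPM in PDL control, so it lay above the control in IKVAV PA and below it with PEDOT-S. Rest had 14.5, 13.1 and 13.7 CPM, and Mir124-2hg 46.3, 45.6 and 43.8 CPM, in IKVAV PA, IKVAV PA + PEDOT-S and PDL control. Mature miRNA was not measured in these libraries.

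Genes whose RNA output PTB proteins hold down by intron retention or exon skipping lay close to no difference. None of 5 (Dlg4, Gabbr1, Vamp2, Sv2a and Kif5a) was called in any comparison. Their median log2 ratio was 0.00 in IKVAV PA against PDL control, -0.02 in IKVAV PA + PEDOT-S against PDL control and -0.03 between the scaffolds. Kif5a, an axonal kinesin, varied most, at 839, 711 and 786 CPM in IKVAV PA, IKVAV PA + PEDOT-S and PDL control. Dlg4, the postsynaptic scaffold PSD-95, had 470, 452 and 498 CPM.

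Among other regulators of splicing, Qk and Msi2 lay furthest from PDL control by their nearer bounds in both scaffold libraries. Qk, quaking, which acts in glia and myelination, had 98.1 CPM in IKVAV PA, 110 in IKVAV PA + PEDOT-S and 139 in PDL control (log2 ratios -0.50 and -0.34). Msi2, a Musashi protein of stem and progenitor cells, had 111, 117 and 149 CPM (-0.42 and -0.35). Its relative Msi1 was at 98.7, 103 and 96.0 CPM. Mbnl3, a muscleblind protein that passed the expression filter in PDL control alone, had 0.931, 0.677 and 1.13 CPM and a log2 ratio of -0.74 with a wide interval (-1.26 to -0.23) in IKVAV PA + PEDOT-S against PDL control. In this list of 17 genes 15 were tested, with a median log2 ratio of 0.01 and -0.03 for IKVAV PA and IKVAV PA + PEDOT-S against PDL control, and none was called in any comparison. None of 6 relatives of the regulators, 13 SR proteins or 15 factors of mRNA transport and translation was called either, in any of the 3 comparisons.

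The hnRNP list held a further call, 1 of 21 genes in a comparison where 4.21% of all genes were called. Hnrnpab, a nuclear ribonucleoprotein, had 254 CPM in IKVAV PA, 304 in IKVAV PA + PEDOT-S and 176 in PDL control, and was called higher in IKVAV PA + PEDOT-S against PDL control (1.73-fold, log2 ratio 0.79, interval 0.76 to 0.82). Of its exonic bases 29.1% overlap Phykpl on the other strand, which had 13.0, 11.0 and 11.3 CPM. Hnrnpa0, without shared bases, had 391, 431 and 300 CPM (log2 ratios 0.38 and 0.52 against PDL control) and was not called. The other 19 of 21 hnRNP genes had no call in any comparison, and the median log2 ratio of the list was -0.04 and 0.05 against PDL control. Igf2bp1, an RNA-binding protein of the fetal brain, had 8.84, 11.9 and 8.90 CPM and so stood highest with PEDOT-S.

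**Figure D5:**
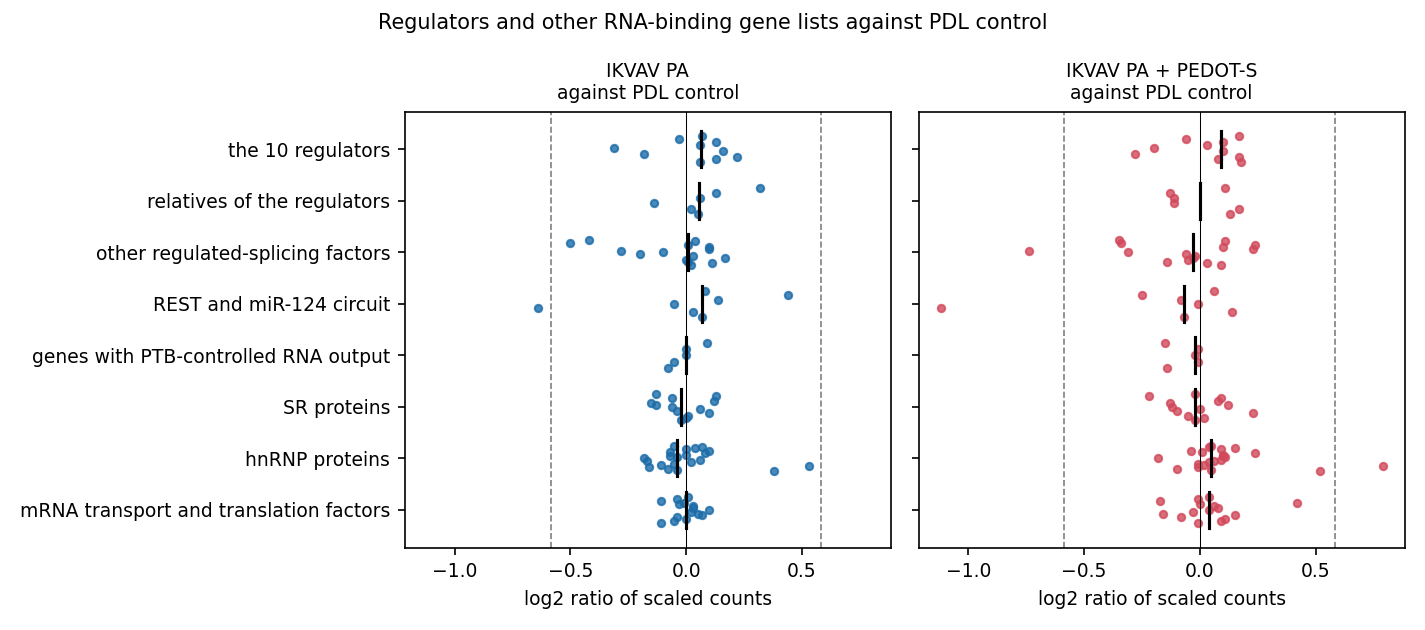
Log2 ratio of scaled counts against PDL control for each tested gene (points) of the 10 regulators and of 7 other gene lists, with list medians (black bars) and 1.5-fold (dashed lines); 1 library per group. Most points lie between the dashed lines, and Ctdsp1 (-1.12) and Hnrnpab (0.79) are called with PEDOT-S.

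The genes whose pattern was most like that of Ptbp1 were sought by the distance between their 2 log2 ratios against PDL control and its own. Among 8047 protein-coding genes at 10 CPM or more with at most 10% of shared exonic bases, the nearest were Slc24a4 (distance 0.0114), Zfp275 (0.0118) and Slit2 (0.0149). Slit2, a secreted axon guidance cue, had 95.6 CPM in IKVAV PA, 102 in IKVAV PA + PEDOT-S and 118 in PDL control. As 40 genes lay within 0.05 of Ptbp1 and the pattern rests on 3 libraries, this likeness is a description only.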

How the data were processed

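As deposited, each library is a list of unnormalised whole-number counts for Ensembl genes. Per the submitters' processing notes, cutadapt 4.2, STAR 2.7.5, HTSeq 2.0.2, DESeq2 1.14.1 and the mm10 build were used. The sources used here do not give their order, the annotation or the strand setting. Per the labels' protocols the libraries came from a total RNA kit, whereas the molecule field reads polyA RNA. Groups follow the titles, since all 3 libraries share one treatment entry. All are repeat 3 of their group, and other repeats were not analysed here.

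Symbols, positions and exon lengths were taken from GENCODE M21 (GRCm38), in which 54165 of 54232 identifiers were found. Genes with at least 1 CPM in at least 1 library were kept. Counts were scaled with TMM factors (edgeR 4.0.16, R 4.3.3), which lay between 0.99 and 1.01. A ratio of scaled counts was given a 95% Clopper-Pearson interval (SciPy 1.17.1), without a prior count. A gene was called when the nearer bound lay beyond 1.5-fold. Intervals treat reads as independent, which PCR copies are not. The procedure was tested on simulated counts that varied by counting error alone, so that test does not cover differences between cultures.

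The regulators and the gene lists were chosen with earlier results of these data known. One list gene is not reported here. The named genes are the regulators, called genes of the related lists, list genes with the bound furthest from no difference, markers with the highest CPM, and the 3 genes nearest to Ptbp1. Not all genes that the rule names are described, and Msi1, Elavl1, Elavl2, Rest and Mir124-2hg were added as relatives of named genes, as were genes whose exons overlap theirs. Results were recomputed with size factors from DESeq2 1.42.0, with total counts alone, with centring on neuronal markers, other filters and bounds, thinning to the smallest total, protein-coding genes alone, removal of an exon length trend, prior counts of 2 and 0.5, Ptbp3 summed with Ptbp2, and transcript length.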

Additional observations from a re-analysis of the deposited data

How the results depend on the processing

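The count of called regulators was 0 in each of the 3 comparisons under DESeq2 size factors, total counts, centring on neuronal markers, no expression filter, a filter of 5 CPM, a 2-fold bound, thinning, protein-coding genes alone and removal of the length trend. With an interval that only had to leave out no difference it was 9 in IKVAV PA against PDL control, 9 in IKVAV PA + PEDOT-S against PDL control and 10 between the scaffolds, because that rule has no fold bound. Of 210 values of single regulators under alternatives, 193 lay within the counting interval of the reported value, and the largest shift was 0.03 on the log2 scale. All alternatives reuse the same 3 libraries, and a prior count of 2 could hardly move counts of 2005 or more. The sign changed for 1 gene, Ptbp2 in IKVAV PA + PEDOT-S against PDL control, which went to -0.0002 with total counts and -0.0022 with neuronal markers centred. The log2 balance of Ptbp1 to Ptbp2 against PDL control was -0.37 in IKVAV PA and -0.23 in IKVAV PA + PEDOT-S. It stayed within its counting interval when thinned, with 0.5 added to each count and with Ptbp3 summed with Ptbp2 (-0.35 and -0.21). Adding 0.5 could hardly move counts of this size. In PDL control the most abundant regulator stood 29.2-fold above the least abundant per kilobase of merged exon, and 32.8-fold per kilobase of the longest transcript, which is a change of the lengths alone. The calls of Ctdsp1, Mir124a-1hg and Hnrnpab held in all 12 checks of scaling and depth, chosen after seeing the data. No paired analysis was possible because each group has 1 library. With 1 library per group, differences between cultures were not measured. Counting intervals were widest for Ptbp1 and Nova1, the regulators with the fewest counts.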
